A study of Mus musculus with 6 samples.

Results

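The genes described here are the D-type cyclins (Ccnd1, Ccnd2 and Ccnd3), the kinases they activate (Cdk4 and Cdk6) and the retinoblastoma family of pocket proteins (Rb1, Rbl1 and Rbl2). They were chosen by name, and all 8 were found among the 23565 mouse genes of the deposited count table. All 8 also passed the filter on low counts that left 12439 genes for testing. D-type cyclins link growth signals to the cell cycle: bound to CDK4 or CDK6 they phosphorylate the pocket proteins, which otherwise hold E2F transcription factors in check. E2F factors then drive the genes of DNA synthesis, INK4 proteins block CDK4 and CDK6, and CIP/KIP proteins block CDK2 complexes. In the intestine this step is passed by the dividing cells of the crypt and left behind by their differentiated offspring.

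RNA was sequenced in 6 libraries of sorted mouse cells, taken from crypts of the small intestine 16 hours after 1 mg of tamoxifen. The Hopx-CreER group, 3 libraries of tdTomato-positive cells, came from HopXCreER::Rosa26LSL-tdTomato mice, in which a tamoxifen-dependent Cre made from the Hopx gene switches on a red reporter. The Lgr5-CreER group, 3 libraries of cells positive for both eGFP and tdTomato, came from Lgr5eGFP-IRES-CreER::Rosa26LSL-tdTomato mice, in which the stem cell gene Lgr5 drives eGFP and the Cre. All mice thus carried the reporter and received tamoxifen, and there was no untreated or Cre-free group. The design gives 3 mice of each genotype, while age, sex and strain background are not given in the sources used here. Genotype and sorting gate differ together and cannot be told apart.

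The libraries held 10839306 to 14570555 counts, and 3 counts equalled 0.20 to 0.28 CPM, the count scaled to library size with TMM factors. Numbers 1 to 3 follow the order of the columns and do not link the groups. Lgr5-CreER libraries 2 and 3 carry the same number in their column names, so that they may not be separate mice, and p-values then measure only the spread between these samples. Hopx-CreER library 3 differed from the mean of libraries 1 and 2 by a deviation that followed transcript GC content (Spearman rho 0.473 across 12426 genes, which are not independent replicates). This value was not computed for the other libraries. Library 3 also differed in cell type markers, with Paneth markers at 32210 CPM against 15540 and 14800 CPM in libraries 1 and 2, enterocyte markers at 2259 against 876.5 and 779 CPM, and tuft markers at 137.9 against 720.5 and 568.9 CPM. Library 2 was the highest in goblet markers (8973 against 6672 and 6494 CPM in libraries 1 and 3) and in enteroendocrine markers (4066 against 1975 and 2718 CPM). The column name of library 3 alone carries a suffix that the labels do not explain. The part of these markers in the members' values was not tested. Values with GC offsets or without library 3 are given beside some of the results they move, and pathway counts under them in the closing section. Among all tested genes, 9.45% were called higher in Hopx-CreER cells and 3.30% lower (edgeR adjusted p under 0.05). Of these calls, 74.1% were higher in Hopx-CreER cells, against 56.3% when library totals alone set the scale and 50.1% with offsets for GC content. Of 6 epithelial markers, summed to 11840 to 12600 CPM in Hopx-CreER and 8389 to 8809 CPM in Lgr5-CreER libraries, the keratin genes Krt8, Krt18 and Krt20 were called higher in Hopx-CreER cells (6471 against 3228, 1453 against 873.5 and 159.5 against 39.3 CPM) and Epcam, Cdh1 and Vil1 were not called. In contrast, 7 immune markers summed to at most 5.24 CPM and 5 stromal and endothelial markers to at most 3.55 CPM in any library.

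Cdk6 was the one gene of the 8 that passed the test. It was 2.66-fold higher in Lgr5-CreER than in Hopx-CreER cells. Cdk4, by far the most abundant of the group, and Rbl1 were also lower in every Hopx-CreER library than in any Lgr5-CreER library, but neither passed the test. The D cyclins and the other pocket proteins overlapped between the groups. Thus 1 of 8 (12.5%) was called lower, beside 3.30% of all tested genes, and edgeR called 0 of 8 higher, beside 9.45%. At an unadjusted p under 0.05, 2 were lower and 0 higher, beside 1375 and 2027 of the 12439 tested genes. DESeq2 and limma-voom also called 1 lower and 0 higher, where they called 694 and 410 of all tested genes lower. Groups that did not overlap were found for 3 of 8, all lower in Hopx-CreER cells, where 16.2% of all tested genes were separated in that direction and 18.8% in the other. Fold changes are Hopx-CreER over Lgr5-CreER throughout. The median on the log2 scale was -0.21 over the 8 genes and -0.033 over all tested genes. With so few genes these shares describe the group and set it apart from nothing.

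**Figure D1:**
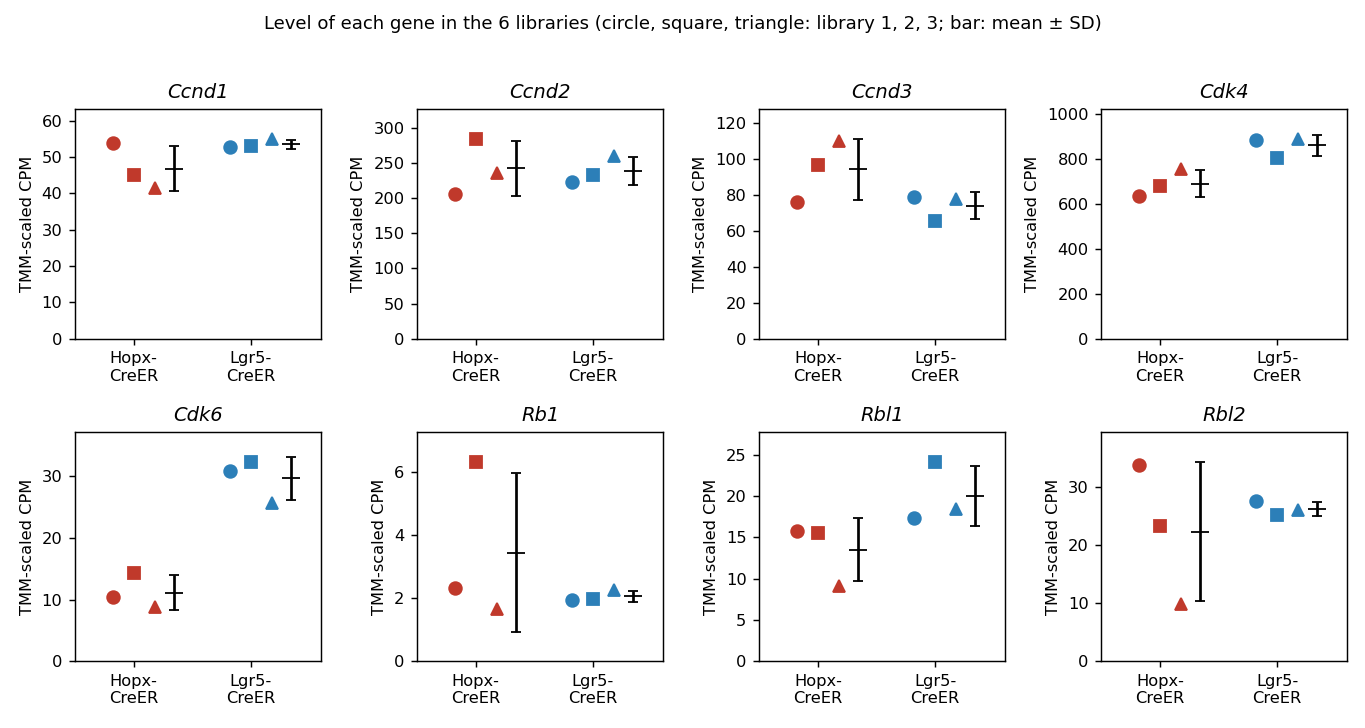
TMM-scaled CPM of the 8 genes in each library, with Hopx-CreER in red and Lgr5-CreER in blue. The symbols stand for libraries 1, 2 and 3 and the bars for the mean ± SD of 3 libraries. Cdk6 lies at 8.81 to 14.3 CPM in Hopx-CreER and at 25.7 to 32.4 CPM in Lgr5-CreER libraries, and Cdk4 and Rbl1 are the other genes whose groups do not overlap.

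For the 3 genes whose libraries were separated, the 250 bases before the RefSeq transcript start (build GRCm38.p6) are shown. They were chosen by that separation, which 16.2% of all tested genes had in this direction. Cdk4 and Rbl1 did not pass the test, and shared regulation was not tested. Capitals mark matches, on either strand, to CACGTG, the E-box that MYC and related factors bind, and to TTTNNCGC, a loose form of the E2F site.
Cdk6 (chr5:3343643-3343892, plus strand): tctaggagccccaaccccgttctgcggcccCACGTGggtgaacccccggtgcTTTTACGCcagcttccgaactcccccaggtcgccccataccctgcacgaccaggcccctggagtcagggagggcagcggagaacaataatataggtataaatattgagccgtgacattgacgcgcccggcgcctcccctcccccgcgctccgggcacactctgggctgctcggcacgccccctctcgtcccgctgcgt
Cdk4 (chr10:127063285-127063534, plus strand): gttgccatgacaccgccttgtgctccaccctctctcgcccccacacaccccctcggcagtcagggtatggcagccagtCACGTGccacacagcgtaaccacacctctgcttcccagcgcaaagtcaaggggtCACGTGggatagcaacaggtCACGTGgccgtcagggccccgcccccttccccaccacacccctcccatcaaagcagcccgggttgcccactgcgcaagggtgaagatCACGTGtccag
Rbl1 (chr2:157204535-157204784, minus strand): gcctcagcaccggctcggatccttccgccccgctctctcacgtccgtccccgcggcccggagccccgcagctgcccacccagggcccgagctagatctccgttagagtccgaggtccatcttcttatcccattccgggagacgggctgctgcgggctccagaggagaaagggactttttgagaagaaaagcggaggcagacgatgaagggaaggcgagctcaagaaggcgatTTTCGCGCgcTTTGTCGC

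The Cdk4 sequence holds 4 copies of CACGTG, which begin 172, 118, 98 and 11 bases before the start. The Cdk6 sequence has 1 copy of CACGTG, 220 bases before the start, and 1 match to TTTNNCGC, 198 bases before it. The Rbl1 sequence has 2 matches to TTTNNCGC, 18 and 8 bases before the start, of which the first reads TTTCGCGC. Of 32851 RefSeq windows of this length, 6.02% hold CACGTG and 4.28% hold TTTNNCGC. Those windows were not matched for GC content, and both motifs contain CG. The sequences shown have 66% GC for Cdk6, 64.4% for Cdk4 and 63.6% for Rbl1, so these shares may understate how common the motifs are in similar windows. Neither motif occurs in all of the sequences shown, and the 2 motifs share no overlapping letters there. Windows were found for 5 of the 8 genes, and those of Ccnd3 (2 windows) and Rbl2 hold neither motif. The Cdk6 window lies inside the gene as GENCODE M21 draws it, because that annotation starts the gene further upstream. A match is a description of the sequence, and binding was not measured.

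Cdk6 (ENSMUSG00000040274.11; protein coding, chromosome 5, 3341485 to 3531008, plus strand, GRCm38) encodes a kinase partner of the D cyclins that is prominent in blood cells. It stood at 10.4, 14.3 and 8.81 CPM in Hopx-CreER libraries 1, 2 and 3, and at 30.9, 32.4 and 25.7 CPM in Lgr5-CreER libraries, from 95 to 169 and from 373 to 462 counts. The highest Hopx-CreER library was thus well below the lowest Lgr5-CreER library. The means were 11.2 ± 2.82 and 29.7 ± 3.53 CPM (SD, n = 3), and the log2 fold change was -1.41 ± 0.23 (SE; 95% interval -1.93 to -0.89; edgeR adjusted p 0.00505). The call was kept in all 17 alternative analyses, the 6 that left out 1 library included, with log2 fold changes of -1.62 to -1.27 and edgeR, limma-voom or DESeq2 adjusted p of 1.43e-07 to 0.0323. Markers of several cell types also differed between the groups, in both directions. The 6 crypt base columnar (Lgr5 stem cell) markers were all called lower in Hopx-CreER cells, at summed levels of 2641 to 4458 against 9353 to 9817 CPM. All 7 Paneth markers (14800 to 32210 against 1638 to 3197 CPM), all 6 goblet markers (6494 to 8973 against 1907 to 2488 CPM) and all 7 enterocyte markers (779 to 2259 against 148 to 233 CPM) were called higher. So were 6 of 7 enteroendocrine markers (1975 to 4066 against 127 to 213 CPM) and 3 of 6 tuft markers (138 to 721 against 88.0 to 123.9 CPM), with the tuft marker Gnat3 at 0 counts throughout. Their part in the Cdk6 result was not tested. In bulk RNA, fewer cells that express a gene and less of its RNA per cell cannot be told apart.

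Cdk4 (ENSMUSG00000006728.12; protein coding, chromosome 10, 127063534 to 127067920, plus strand) encodes the kinase partner found in most dividing tissues. The Hopx-CreER libraries gave 637, 678 and 756 CPM, and the Lgr5-CreER libraries gave 884, 806 and 890 CPM. All 3 Hopx-CreER values were below all 3 Lgr5-CreER values, by a modest margin of 1.25-fold between the means of 690 ± 60.5 and 860 ± 46.6 CPM (SD, n = 3). The log2 fold change was -0.32 ± 0.11 (SE; 95% interval -0.56 to -0.07, not adjusted for the number of genes; edgeR adjusted p 0.0905), which did not pass the threshold. It passed in 4 of 17 alternatives: without Hopx-CreER library 3 (-0.40; edgeR adjusted p 0.0216), with that library left out and the Lgr5-CreER columns of 1 number summed (-0.40; edgeR adjusted p 0.0451), with GC offsets (-0.49; edgeR adjusted p 0.0104) and with library totals alone (-0.43; edgeR adjusted p 0.0192). The last scaling moved the median of all genes by -0.11, and relative to that shift Cdk4 was at -0.32. Over the 17 alternatives the adjusted p from edgeR, DESeq2 or limma-voom ran from 0.0104 to 0.25. Cdk4 shares 641 exon bases with Tspan31 on the other strand, a gene with 1379 to 2211 counts per library, and since the library kit does not mark strand, reads of that stretch could belong to either.

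**Figure D2:**
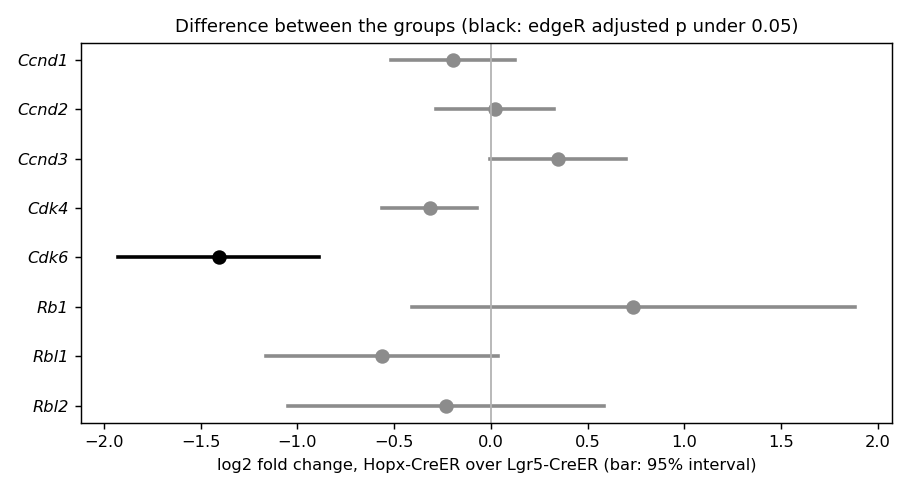
log2 fold change of the 8 genes between Hopx-CreER and Lgr5-CreER cells (points) with 95% intervals from the edgeR fit (bars). Cdk6, in black, is the gene that passed the test, at -1.41, and the interval of Rb1 is the widest, from -0.41 to 1.88.

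The ratio of the 2 kinases does not depend on library scaling. No GC offset was applied to it, although transcript GC content was 53.3% for Cdk4 and 45.1% for Cdk6. Per base of exon, Cdk4 was 264, 204 and 369 times as abundant as Cdk6 in the Hopx-CreER libraries and 123, 107 and 149 times as abundant in the Lgr5-CreER libraries. Cdk6 made up 0.378%, 0.488% and 0.270% of the sum of both kinases in Hopx-CreER libraries 1, 2 and 3, and 0.806%, 0.925% and 0.666% in the Lgr5-CreER libraries. The groups did not overlap, and in both of them nearly all kinase RNA of this pair was Cdk4. With the longest transcript as the length, the mean share of Cdk6 was 0.290% and 0.614%.

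Ccnd2 was the most abundant D cyclin in every library. Ccnd2 (ENSMUSG00000000184.12; protein coding, chromosome 6, 127125162 to 127152193, minus strand) stood at 207, 285 and 236 CPM in Hopx-CreER libraries and at 223, 233 and 261 CPM in Lgr5-CreER libraries. The lowest and the highest value were both from Hopx-CreER libraries. The log2 fold change was 0.02 ± 0.13 (SE; 95% interval -0.28 to 0.32; edgeR adjusted p 0.934), with the interval on both sides of 0. Its sign turned in 5 of the 17 alternatives, and no alternative called it.

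Ccnd1 (ENSMUSG00000070348.5; protein coding, chromosome 7, 144929931 to 144939925, minus strand) encodes the D cyclin long studied as a target of growth factor and Wnt signalling. It was at 53.7, 45.2 and 41.5 CPM in Hopx-CreER libraries, and at 52.7, 53.0 and 55.0 CPM in Lgr5-CreER libraries. Hopx-CreER library 1 lay inside the narrow Lgr5-CreER range and the other two lay below it. Between the groups the log2 fold change was -0.19 ± 0.14 (SE; 95% interval -0.52 to 0.13; edgeR adjusted p 0.419). Ccnd3 (ENSMUSG00000034165.16; protein coding, chromosome 17, 47505051 to 47599691, plus strand), the D cyclin often linked to lymphocytes and to differentiating cells, was at 76.3, 96.7 and 109.9 CPM against 78.9, 65.5 and 77.9 CPM. Here 2 Hopx-CreER libraries lay above the Lgr5-CreER range and library 1 within it. Its log2 fold change was 0.35 ± 0.16 (SE; 95% interval -0.0039 to 0.70; edgeR adjusted p 0.187), and 0.09 with GC offsets. Transcript GC content was 56.7% for Ccnd3, the highest of the 8 genes. The processed pseudogene Ccnd3-ps held 10 counts over all libraries. Ccnd1 shares 1100 exon bases with LTO1 on the other strand, and Ccnd3 361 with Bysl, so reads there cannot be assigned to one gene.

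Summed per kilobase of exon, the D cyclins reached 42.1, 50.9 and 46.4 CPM per kb in Hopx-CreER libraries and 43.9, 43.5 and 48.3 CPM per kb in Lgr5-CreER libraries, so the total overlapped. Ccnd2 took 52.2% to 59.5% of this sum in Hopx-CreER and 54.1% to 57.4% in Lgr5-CreER libraries. Ccnd1 took 27.1%, 18.9% and 19.0% in Hopx-CreER libraries 1, 2 and 3, and 24.2% to 25.9% in Lgr5-CreER libraries. Ccnd3 took 20.7%, 21.7% and 27.0% against 20.5%, 17.2% and 18.4%, so its groups were separated, but by a gap of 20.5% to 20.7%. These shares depend on the length used: with the longest transcript Ccnd3 averaged 32.4% and 26.9%, and Ccnd1 16.9% and 20.1%. No test was made on shares.

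**Figure D3:**
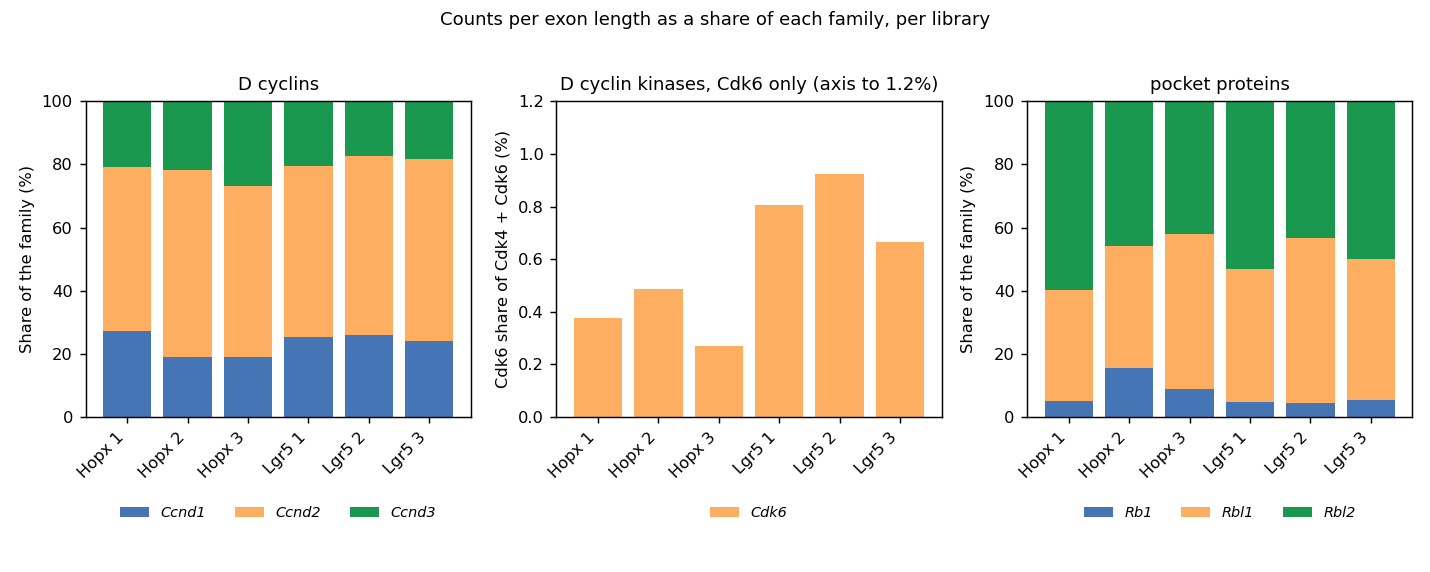
Counts per exon length as a share of each family in each library, as stacked bars for the D cyclins and the pocket proteins and as single bars, on an axis to 1.2%, for the share of Cdk6 in the sum of Cdk4 and Cdk6. Ccnd2 is the largest D cyclin in all 6 libraries, Cdk6 lies at 0.270% to 0.488% in Hopx-CreER and 0.666% to 0.925% in Lgr5-CreER libraries, and Rb1 is the smallest pocket protein share throughout.

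None of the pocket protein genes passed the test. Rbl1 (ENSMUSG00000027641.13; protein coding, chromosome 2, 157145893 to 157204534, minus strand) encodes p107, itself a known E2F target that accumulates in dividing cells. Its level was 15.8, 15.6 and 9.09 CPM in Hopx-CreER libraries and 17.4, 24.2 and 18.4 CPM in Lgr5-CreER libraries. The groups did not overlap, but Hopx-CreER libraries 1 and 2 came close to the lowest Lgr5-CreER library. For Rbl1 the log2 fold change was -0.56 ± 0.27 (SE; 95% interval -1.17 to 0.03; edgeR adjusted p 0.208), it was -0.36 without Hopx-CreER library 3, and it stayed between -0.69 and -0.29 over the alternatives, none of which called it.

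Rbl2 (ENSMUSG00000031666.15; protein coding, chromosome 8, 91070057 to 91123844, plus strand) encodes p130, the pocket protein typical of resting cells. It stood at 33.8, 23.3 and 9.83 CPM in Hopx-CreER libraries, and at 27.6, 25.2 and 26.0 CPM in Lgr5-CreER libraries. The Hopx-CreER values thus lay above, just below and far below a tight Lgr5-CreER range. The log2 fold change was -0.23 ± 0.36 (SE; 95% interval -1.05 to 0.59; edgeR adjusted p 0.716) and turned to 0.11 without Hopx-CreER library 3. Rbl2 shares 693 exon bases with Aktip on the other strand, so reads there cannot be assigned to one gene. Aktip had 888 to 1251 counts per library, against 106 to 449 for Rbl2.

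Rb1 (ENSMUSG00000022105.6; protein coding, chromosome 14, 73183673 to 73325822, minus strand), the retinoblastoma gene itself, had the lowest level of the 8. It was at 2.34, 6.34 and 1.67 CPM in Hopx-CreER libraries, from 31, 75 and 18 counts, and at 1.94, 1.99 and 2.27 CPM in Lgr5-CreER libraries, from 29, 23 and 33 counts. Hopx-CreER library 2 alone was high, and the other 5 libraries lay between 1.67 and 2.34 CPM. The log2 fold change of 0.74 ± 0.51 (SE; 95% interval -0.41 to 1.88; edgeR adjusted p 0.389) became -0.04 without that library and 1.04 without Hopx-CreER library 3. Exons of Rb1 overlap those of Rcbtb2 and Lpar6 on the other strand, by 488 and 408 bases, and both of these genes had more counts than Rb1 in every library. Rb1 made up 5.17%, 15.7% and 8.97% of the pocket protein sum per kb in Hopx-CreER libraries 1, 2 and 3, and 4.29% to 5.47% in Lgr5-CreER libraries. The difference between the means was thus within the spread of the Hopx-CreER libraries.

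The members' deviations in Hopx-CreER library 3 moved with their GC content. Relative to the mean of Hopx-CreER libraries 1 and 2, its log2 CPM differed by -1.14 for Rb1 (transcript GC 41.2%), -0.78 for Rbl1 (42.1%), -0.46 for Cdk6 (45.1%) and -1.50 for Rbl2 (47.0%). It was -0.04 for Ccnd2 (47.1%) and -0.25 for Ccnd1 (50.9%), and above 0 for Cdk4, at 0.20 (53.3%), and for Ccnd3, at 0.36 (56.7%). The 4 members of lowest GC were each at their Hopx-CreER low in this library, as was Ccnd1, and the 2 of highest GC at their Hopx-CreER high. With GC offsets, Cdk6 remained called at -1.32 (edgeR adjusted p 0.00271), Rbl1 was at -0.41 and Cdk4 at -0.49.

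Levels between genes were compared per kilobase of exon. In Lgr5-CreER libraries the order was Cdk4 (264.7 ± 14.4 CPM per kb, SD, n = 3), Ccnd2 (25.4 ± 2.06), Ccnd1 (11.4 ± 0.27), Ccnd3 (8.44 ± 0.85), Rbl2 (3.48 ± 0.16), Rbl1 (3.34 ± 0.61), Cdk6 (2.12 ± 0.25) and Rb1 (0.34 ± 0.030). Rbl2 and Rbl1 were the neighbours whose libraries overlapped. In Hopx-CreER libraries the order was Cdk4 (212.5 ± 18.6 CPM per kb), Ccnd2 (25.8 ± 4.19), Ccnd3 (10.8 ± 1.93), Ccnd1 (9.93 ± 1.33), Rbl2 (2.96 ± 1.59), Rbl1 (2.25 ± 0.64), Cdk6 (0.80 ± 0.20) and Rb1 (0.57 ± 0.42). Here Ccnd3 and Ccnd1, Rbl2 and Rbl1, and Cdk6 and Rb1 overlapped. The order of Ccnd1 and Ccnd3 rests on the length: with the longest transcript Ccnd3 was above Ccnd1 in both groups. Among 15118 protein-coding genes with counts, ranked by level per kb, Cdk4 lay at percentile 98.2 in Hopx-CreER and 99.0 in Lgr5-CreER cells. Cdk6 lay at percentile 37.1 and 47.5, and Rb1 at 33.8 and 30.2.

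The largest rises among the called pathway genes were those of cyclin-dependent kinase inhibitors, which were higher in Hopx-CreER cells. Of the 3 INK4 genes tested (4 listed), 2 were called higher and 0 lower (at an unadjusted p under 0.05, 0 lower, as with DESeq2 and limma-voom). Among all tested genes, 9.45% were called higher and 3.30% lower, and 1375 of 12439 were lower at an unadjusted p under 0.05. Cdkn2b, which encodes the CDK4 and CDK6 inhibitor p15, stood at 57.4, 54.0 and 77.5 CPM in Hopx-CreER and 7.56, 8.03 and 16.2 CPM in Lgr5-CreER libraries (log2 fold change 2.56 ± 0.31, SE; edgeR adjusted p 0.00122). Cdkn2d, for p19, rose by 1.08 ± 0.23 (edgeR adjusted p 0.0151), a call that ended without Lgr5-CreER library 2 (edgeR adjusted p 0.0703) and with the Lgr5-CreER columns of 1 number summed (edgeR adjusted p 0.0506). Cdkn2a had 0 counts in 5 libraries and 1 count in Lgr5-CreER library 3. Of the 3 CIP/KIP genes, 2 were called higher, beside the same 9.45% of all tested genes. Cdkn1a, for p21, rose from 22.8 ± 2.34 CPM in Lgr5-CreER to 142.6 ± 37.3 CPM in Hopx-CreER cells (SD, n = 3; log2 fold change 2.65 ± 0.21, SE; edgeR adjusted p 0.000374). Cdkn1c, for p57, rose by 2.25 ± 0.36 (edgeR adjusted p 0.0047). Every Hopx-CreER library was above every Lgr5-CreER library for these 4 genes, as for 18.8% of all tested genes. The differentiated cell markers given beside Cdk6 were higher in the same libraries, and their part in these rises was not tested.

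Of the 10 genes for E2F factors and their DP partners, 1 was called higher and 0 lower, beside 9.45% and 3.30% of all tested genes. At an unadjusted p under 0.05, 2 were lower, beside 1375 of the 12439 tested genes. DESeq2 called 1 lower and limma-voom 0, beside 694 and 410 of all tested genes. E2f2, an activating E2F, stood at 86.6, 70.9 and 84.1 CPM in Hopx-CreER libraries and at 44.1, 38.8 and 43.0 CPM in Lgr5-CreER libraries. It rose by 0.94 ± 0.13 on the log2 scale (SE; edgeR adjusted p 0.00285), in the opposite direction to Cdk6. The call was kept in all 17 alternatives, with log2 fold changes of 0.69 to 1.02. Tfdp1, the main DP partner, was at 276.7 and 333.7 CPM (log2 fold change -0.27 ± 0.09, SE; edgeR adjusted p 0.0964), and E2f4, the E2F most often bound to p107 and p130, at 147.0 and 164.3 CPM (-0.16 ± 0.11; edgeR adjusted p 0.374). The median of this list was -0.24.

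**Figure D4:**
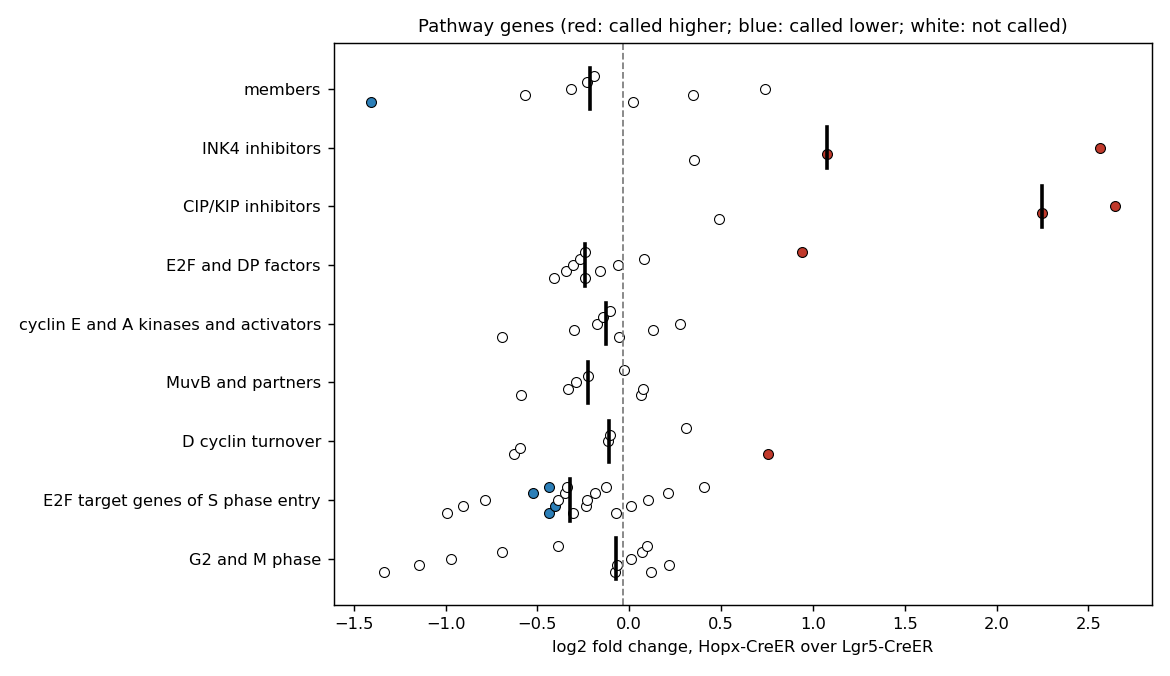
Difference in log2 level (positive values are higher in Hopx-CreER cells) of each tested gene of the 8 members and of 8 pathway lists, with list medians as black bars and the median of all tested genes as a dashed line. Red and blue mark genes called higher and lower: the 4 called inhibitors lie at 1.08 to 2.65, and the 4 called E2F target genes at -0.52 to -0.41.

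Of 20 E2F target genes of S phase entry, 4 (20%) were called lower and 0 higher, beside 3.30% and 9.45% of all tested genes. At an unadjusted p under 0.05, 10 were lower and 1 higher, beside 1375 and 2027 of the 12439 tested genes. DESeq2 called 6 lower and 0 higher, beside 694 and 1403 of all tested genes. With limma-voom the counts were 4 and 0, beside 410 and 1130. The median in the main fit was -0.32. Mcm6, a subunit of the replicative helicase, was at 565, 560 and 503 CPM in Hopx-CreER and at 784, 794 and 765 CPM in Lgr5-CreER libraries (log2 fold change -0.52 ± 0.099, SE; edgeR adjusted p 0.00926). The other 3 were Rrm1, the large subunit of ribonucleotide reductase (-0.44 ± 0.12; edgeR adjusted p 0.0389), and the helicase genes Mcm3 (-0.41 ± 0.11; edgeR adjusted p 0.0424) and Mcm2 (-0.44 ± 0.12; edgeR adjusted p 0.0494). Larger differences that did not pass were those of Pola1, a DNA polymerase subunit (-0.99 ± 0.42; edgeR adjusted p 0.162), Mcm4, another helicase subunit (-0.91 ± 0.31; edgeR adjusted p 0.089), and Ung, a uracil glycosylase (-0.79 ± 0.24; edgeR adjusted p 0.0609). For these 3 genes, too, every Hopx-CreER library was below every Lgr5-CreER library, as for 16.2% of all tested genes. Mcm4 was at 93.5, 98.0 and 36.1 CPM in Hopx-CreER and at 147.8, 148.8 and 130.4 CPM in Lgr5-CreER libraries, so that library 3 was far below the other Hopx-CreER libraries. Pola1 was a low-count gene, with 8 to 18 counts in Hopx-CreER and 30 to 34 in Lgr5-CreER libraries. The list ran from Pola1 up to Rrm2, at 0.40 (edgeR adjusted p 0.0713). Without Hopx-CreER library 1 the count called lower was 2, without library 2 it was 1, without library 3 it was 8, and without any 1 of the Lgr5-CreER libraries it was 1. Mcm6 kept its call in all 6 of these fits, Rrm1 in 2, and Mcm2 and Mcm3 in 1 each. The counts of all genes called lower in these fits also differed and are given in the closing section.

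Genes that act beside the members mostly did not pass, where 9.45% of all tested genes were called higher and 3.30% lower. At an unadjusted p under 0.05, 2027 of the 12439 tested genes were higher and 1375 lower. DESeq2 called 694 of all tested genes lower and limma-voom 410. For cyclin E, cyclin A, CDK2 and their activators, 0 of 8 were called, also at an unadjusted p under 0.05 and by DESeq2 and limma-voom. Ccna2, cyclin A2, was at 204.1 and 225.5 CPM and Cdc25a, a phosphatase that activates CDK2, at 135.5 and 123.7 CPM. For the MuvB complex, which p107 and p130 recruit to repress cell cycle genes, and its partners, 0 of 7 were called by edgeR, DESeq2 or limma-voom, and 1 was lower at an unadjusted p under 0.05. Rbbp4, a MuvB subunit that also serves chromatin complexes, was at 446.9 and 562.3 CPM (-0.33 ± 0.11; edgeR adjusted p 0.0743), and Foxm1, a mitotic transcription factor, at 90.5 and 92.2 CPM. Of 6 genes for D cyclin turnover, 1 was called higher and 0 lower, with 2 lower at an unadjusted p under 0.05, 2 by DESeq2 and 0 by limma-voom. Usp2, a deubiquitinase reported to stabilise cyclin D1, rose from 33.6 ± 4.50 CPM in Lgr5-CreER to 56.7 ± 5.24 CPM in Hopx-CreER cells (SD, n = 3; log2 fold change 0.75 ± 0.16, SE; edgeR adjusted p 0.0139). The Usp2 call ended without Lgr5-CreER library 1 or 2 (edgeR adjusted p 0.0517 and 0.0723). Ambra1 and Fbxo31, which direct D cyclins to degradation, were at 56.3 and 60.5 CPM and at 51.8 and 56.2 CPM. Of 12 genes of G2 and M phase, 0 were called by edgeR, DESeq2 or limma-voom and 2 were lower at an unadjusted p under 0.05. Cdc20, an activator of the anaphase-promoting complex, was at 329.3 and 303.6 CPM, and Ccnb1, cyclin B1, at 227.1 and 237.4 CPM. The low-count genes Mki67, a proliferation marker (1.08 and 2.75 CPM; log2 fold change -1.33 ± 0.41; edgeR adjusted p 0.0642), and Cenpf, a kinetochore protein (0.925 and 2.03 CPM; -1.14 ± 0.47; edgeR adjusted p 0.155), had the largest differences of this list and did not pass. In each pair of levels the first is the mean of Hopx-CreER and the second that of Lgr5-CreER libraries.

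Genes whose pattern over the 6 libraries was most like that of each member were sought among 8050 protein-coding genes averaging 10 CPM or more (8051 for Rb1), by the distance between log2 CPM profiles centred on their mean. For Cdk6 these were Syne4, which encodes a nesprin of the nuclear envelope (distance 0.369), and Fyn, a Src-family kinase (0.378). Both were lower in Hopx-CreER cells, Syne4 at a log2 fold change of -1.44 and Fyn at -1.52. That follows from choosing them by their likeness to Cdk6, so it is not a separate result. For Cdk4 they were Oaz2, an inhibitor of ornithine decarboxylase (0.0828), and Exosc2, an RNA exosome subunit (0.0932). For Ccnd1 they were Kat7, a histone acetyltransferase (0.0490), and Slc16a1, a lactate transporter (0.0511); for Ccnd2, Rnaset2b, a ribonuclease (0.0894), and Brcc3, a deubiquitinase (0.128); and for Ccnd3, Slc12a9 (0.0657) and the S6 kinase gene Rps6kb2 (0.0887). Rbl1 lay nearest to Nrip1, a nuclear receptor corepressor (0.156), and Fbxo33 (0.170), and Rbl2 to Sec23ip (0.214) and Prc1, a cytokinesis protein (0.266). Rb1 lay farthest from its nearest genes, Bace1, the beta-secretase (0.588), and Naip5, an inflammasome sensor (0.626). This distance grows with a gene's own spread, which in Hopx-CreER libraries was widest for Rb1 relative to the mean. The Pearson r of Rb1 was 0.962 with Bace1 and 0.950 with Naip5. Ranking by Pearson r kept Slc16a1 for Ccnd1 and none of the other genes named here.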

How the data were processed

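The authors deposited 1 table of raw counts, whole numbers per mouse Ensembl gene for 6 libraries, with no normalization applied. Per the labels' protocols, RNA of sorted cells was amplified with a SMART-Seq kit and made into Nextera XT libraries, without molecular identifiers or strand marking, so counting error understates the true error. Per the submitters' processing notes, kallisto and edgeR were used and the build GRCh38 is named, although the identifiers are mouse. Whether kallisto estimates were rounded is unknown here. Columns were assigned to groups by their sorting gate.

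Symbols, positions, exon lengths and transcript GC came from GENCODE M21 (GRCm38), which matched 23479 identifiers and left 86 unmatched. Groups were compared by quasi-likelihood F-tests of edgeR 4.0.16 (R 4.3.3), using TMM factors, the default count filter and Benjamini-Hochberg adjustment over 12439 genes at 0.05. The SE was taken from the F statistic. CPM are counts scaled to library size, and CPM per kb divides them by the union of exons. Alternatives were RLE and upper quartile factors, library totals alone, DESeq2 1.42.0, limma-voom (limma 3.58.1), other count filters (none, or at least 1 CPM in 3 libraries), GC offsets (a spline with 5 degrees of freedom per library), a threshold of 0.01, leaving out each library, and summing both Lgr5-CreER columns with a common number. That sum without Hopx-CreER library 3 was added after the data were seen. The fit was tested on simulated counts. Named genes are the 8 members, from each pathway list the called genes (at most 4, averaging 1 CPM or more in the higher group) or, with fewer than 2 called, also the 2 of highest mean, and the 2 nearest genes by pattern. The markers named singly, Cdkn2a, Ccnd3-ps, Mcm4, Pola1, Ung, Rrm2, Mki67 and Cenpf were named after their values were seen. The members and lists were chosen with earlier results of these data known.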

Additional observations from a re-analysis of the deposited data

How the results depend on the processing

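No paired analysis was possible because the columns of the count table carry no replicate numbers that link the groups. The count of the 8 genes called higher in Hopx-CreER cells was 0 under every alternative. The count called lower, 1 in the main analysis, was 2 with library totals alone, 2 with GC offsets and 2 with the columns of 1 number summed and Hopx-CreER library 3 left out, and it ran from 1 to 2 when 1 library was left out (2 without Hopx-CreER library 3). The added gene was Cdk4 each time, and Cdk6 was called throughout. The count of other pathway genes called lower, 4 in the main analysis, was 2 with RLE factors, 10 with library totals alone, 9 with DESeq2, 14 with GC offsets, 1 with the columns of 1 number summed, 1 at a threshold of 0.01, and 1 to 9 when 1 library was left out. It was 1 without Hopx-CreER library 2, 1 when any Lgr5-CreER library was left out, 2 without Hopx-CreER library 1 and 9 without Hopx-CreER library 3. The count called higher was 6 in the main analysis, which tested 69 of these genes, and 4 to 6 in all alternatives. Signs turned for 3 genes that no analysis called: Ccnd2 (-0.093 with library totals alone, -0.019 with upper quartile factors, from -0.11 without Hopx-CreER library 2 to 0.137 without Hopx-CreER library 1, and -0.028 or -0.0007 when Lgr5-CreER library 1 or 2 was left out), Rb1 (from -0.0396 without Hopx-CreER library 2 to 1.043 without Hopx-CreER library 3) and Rbl2 (from -0.659 without Hopx-CreER library 1 to 0.111 without Hopx-CreER library 3, and 0.107 with the columns of 1 number summed as well). Of 12439 genes tested, 1176 were called higher and 410 lower in the main analysis. The same 12439 gave 1171 and 422 with RLE factors, 1403 and 694 with DESeq2, and 1044 and 1038 with GC offsets. They gave 938 and 729 with library totals alone, and 555 and 99 at a threshold of 0.01. With the columns of 1 number summed, 659 and 131 of 12861 were called. Without Hopx-CreER library 1, 2 or 3, 399 of 12714, 218 of 12799 and 593 of 12891 were called lower. Without Lgr5-CreER library 1, 2 or 3, 200 of 12682, 117 of 12841 and 160 of 12710 were called lower, with 606 higher without library 2. The pathway counts were not tested against these. Over all 17 alternatives the log2 fold change of Rb1 reached 1.074. The fewest counts among the 8 genes were those of Rb1, with 18 to 75 a library.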
